A study of Homo sapiens with 10 samples.

Results

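The enzymes that methylate DNA cytosines and lysines 9 and 27 of histone H3 were examined in drug-surviving and sphere-cultured lung cancer cells. The 10 genes were taken by symbol from the deposited expression table of 46427 genes, as *DNMT1*, *DNMT3A*, *DNMT3B*, *UHRF1*, *EZH1*, *EZH2*, *EHMT1*, *EHMT2*, *SUV39H1* and *SUV39H2*. No rule on their values was applied, but the set was chosen with earlier results of these data known. All 10 passed the filter on low counts in each comparison. The study asked which pathways and genes change together in cells that outlive chemotherapy and in tumor spheroid (TS) cells, the latter as a model of circulating tumor cells.

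Poly(A) RNA was sequenced from 10 cultures of H460 and A549, established human lung cancer cell lines, and no engineered allele is named for any of them. The H460 cultures were 3 parental libraries grown as an attached layer (2D), 1 cisplatin-resistant (CR), 2 paclitaxel-resistant (PR) and 1 doxorubicin-resistant (DR) library, and 1 TS library. The A549 cultures were 1 2D and 1 TS library. CR, PR and DR cells were those left alive after 3 days in 4 µM cisplatin, 5 nM paclitaxel or 0.5 µM doxorubicin and 3 further days in fresh medium, and RNA was taken on day 8. They are short-term survivors that attached after re-plating, not lines selected over many passages. TS cells were passaged in a serum-free medium with growth factors on plates coated against attachment, so culture form and medium differ together between TS and 2D cells. The CR, DR, H460 TS, A549 2D and A549 TS groups have no replicate. The labels do not say whether replicates are separate cultures, so p-values measure the spread between these libraries, which may be technical. The drug-surviving group pools the drugs, so its spread includes differences between drugs. In the TS comparison the cell lines stand in for replicates of TS culture.

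Libraries held from 59499787 to 89541774 reads assigned to genes (median 71656787). *KRT8*, an epithelial keratin, was between 282.7 and 750.6 FPKM (fragments normalized for transcript length and library size) in the parental and drug-surviving H460 libraries and reached 3866 FPKM in A549 TS cells. The keratin *KRT19* went the other way between the lines. It was between 343.1 and 407.4 FPKM in parental H460 and at 3.57 and 68.3 FPKM in the A549 2D and TS libraries. The adhesion gene *CDH1* was at 9.29 and 11.9 FPKM in the A549 libraries and at most 0.0266 FPKM in any H460 parental or drug-surviving library. *EPCAM* was at most 0.114 FPKM in those H460 libraries. The summed FPKM of 3 endothelial markers was at most 0.182 in any library, and the immune genes *PTPRC* and *CD3E* were at or near 0. The summed FPKM of 4 stromal markers was between 1.29 and 6.00 in the parental and between 6.03 and 19.5 in the drug-surviving libraries and 28.3 in the H460 TS library. *COL1A1* (0.0848 to 0.193 against 0.783 to 6.51 FPKM) and *PDGFRB* did not overlap between parental and drug-surviving libraries. *LUM* (0.237 to 2.76 against 0.362 to 6.99 FPKM) and *DCN* did overlap. In the H460 TS library *LUM* was at 26.6 FPKM and *COL1A1* at 0.0510 FPKM. *CD68*, a lysosomal gene of many cell types, was between 15.0 and 16.9 FPKM in the parental and between 30.7 and 57.9 FPKM in the drug-surviving libraries. The part of these markers in the results was not tested.

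DNA methylation in mammals is laid down on unmethylated CpG sites by *DNMT3A* and *DNMT3B*, and it is copied onto the new strand behind the replication fork by *DNMT1*, which *UHRF1* brings to hemimethylated DNA. *EZH2* and its paralog *EZH1* are the alternative catalytic subunits of Polycomb repressive complex 2 (PRC2), which methylates H3K27, and *EZH2* is known as the form of dividing cells. *SUV39H1* and *SUV39H2* make the trimethylated H3K9 of constitutive heterochromatin, and *EHMT1* (GLP) with *EHMT2* (G9a) form a dimer that makes the mono- and dimethylated H3K9 of euchromatin.

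Promoter stretches are shown for genes whose levels the results below turn on, the fallen *DNMT1*, *UHRF1*, *EZH2* and *SUV39H2* and, as the paralog that did not fall, *EZH1*. Each holds 130 bases before and 20 after an annotated RefSeq start on GRCh38.p14, 5′ to 3′ on the gene's strand. Capitals mark an E2F word (TTTCCCGC, TTTCGCGC, TTTGCCGC or TTTGGCGC, on either strand) or, in *SUV39H2*, the cell cycle homology region word TTTGAA. Every stretch shown holds such a word. The fallen *DNMT3B* and *SUV39H1*, whose promoters held no E2F word and no TTTGAA, are not shown. Nor is *DNMT3A*, which did not fall and held TTTGAA.
DNMT1, chr19:10194934-10195083, minus strand: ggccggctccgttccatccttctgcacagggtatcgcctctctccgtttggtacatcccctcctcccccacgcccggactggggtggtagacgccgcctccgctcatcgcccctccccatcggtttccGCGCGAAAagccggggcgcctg
UHRF1, chr19:4909371-4909520, plus strand: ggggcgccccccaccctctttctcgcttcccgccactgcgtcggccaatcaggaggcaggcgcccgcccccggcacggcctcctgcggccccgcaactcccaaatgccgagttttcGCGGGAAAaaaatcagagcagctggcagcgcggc
EZH2, chr7:148884272-148884421, minus strand: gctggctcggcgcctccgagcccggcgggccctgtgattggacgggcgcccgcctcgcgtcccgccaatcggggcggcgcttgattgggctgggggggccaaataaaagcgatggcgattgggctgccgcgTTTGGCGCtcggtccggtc
SUV39H2, chr10:14878736-14878885, plus strand: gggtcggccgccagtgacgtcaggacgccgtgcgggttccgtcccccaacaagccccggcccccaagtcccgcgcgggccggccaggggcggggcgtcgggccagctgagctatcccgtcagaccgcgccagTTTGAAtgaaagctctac
EZH1, chr17:42745021-42745170, minus strand: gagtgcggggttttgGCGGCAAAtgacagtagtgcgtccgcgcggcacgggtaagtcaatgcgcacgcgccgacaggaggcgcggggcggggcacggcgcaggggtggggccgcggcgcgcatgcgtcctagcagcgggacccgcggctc

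The promoter table held 19 windows of 300 bases for the 10 genes, 250 before and 50 after each start, and windows of 1 gene can overlap. An E2F word was present in 5 of them (26.3%), against 3.31% of 35116 promoter windows of all genes. Each of the E2F words contains a CpG. The 5 windows with the word were 67.0% to 76.0% G and C and held 30 to 46 CpG. The medians of all promoters were 58.7% and 14 CpG. The part of base composition in this contrast was not tested. The 4 genes with the word were *DNMT1*, *UHRF1*, *EZH2* and *EZH1*, so the word was present in 3 genes that fell in drug-surviving cells and in 1 that did not. It began at base -2 from the start in *DNMT1*, at base -14 in the *UHRF1* window shown, at base 2 in *EZH2* and at base -115 in *EZH1*. TTTGAA was present in 2 windows (10.5%), of *SUV39H2* and *DNMT3A*, against 15.2% of all windows. CCAAT, searched on both strands, was present in 5 windows (26.3%), of *EZH2*, *UHRF1*, *DNMT3B* and *SUV39H1*, against 34.6% of all windows, and matches of different words did not overlap. The *EZH2* window held 4 CCAAT matches, between bases -94 and -13. These are matches of letters and not measured binding sites.

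In drug-surviving H460 cells 6 of the 10 genes fell and 0 rose, by the quasi-likelihood test of edgeR on read counts with Benjamini-Hochberg adjusted p under 0.05 over 18398 genes. Of all genes tested, 15.4% were called lower and 18.4% higher. Genes called higher made up 54.4% of the calls, and 67.4% with upper-quartile scaling. The fallen genes were *DNMT1*, *UHRF1*, *DNMT3B*, *EZH2*, *SUV39H1* and *SUV39H2*. For these 6, every drug-surviving library lay below every parental library in FPKM, as did 13.6% of all genes tested. The 4 other genes, *DNMT3A*, *EZH1*, *EHMT1* and *EHMT2*, did not pass the test, and 1 gene was higher at an unadjusted p under 0.05 (*EZH1*) and 0 with DESeq2. In bulk RNA, fewer cells that express a gene and less of its RNA per cell cannot be told apart.

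**Figure D1:**
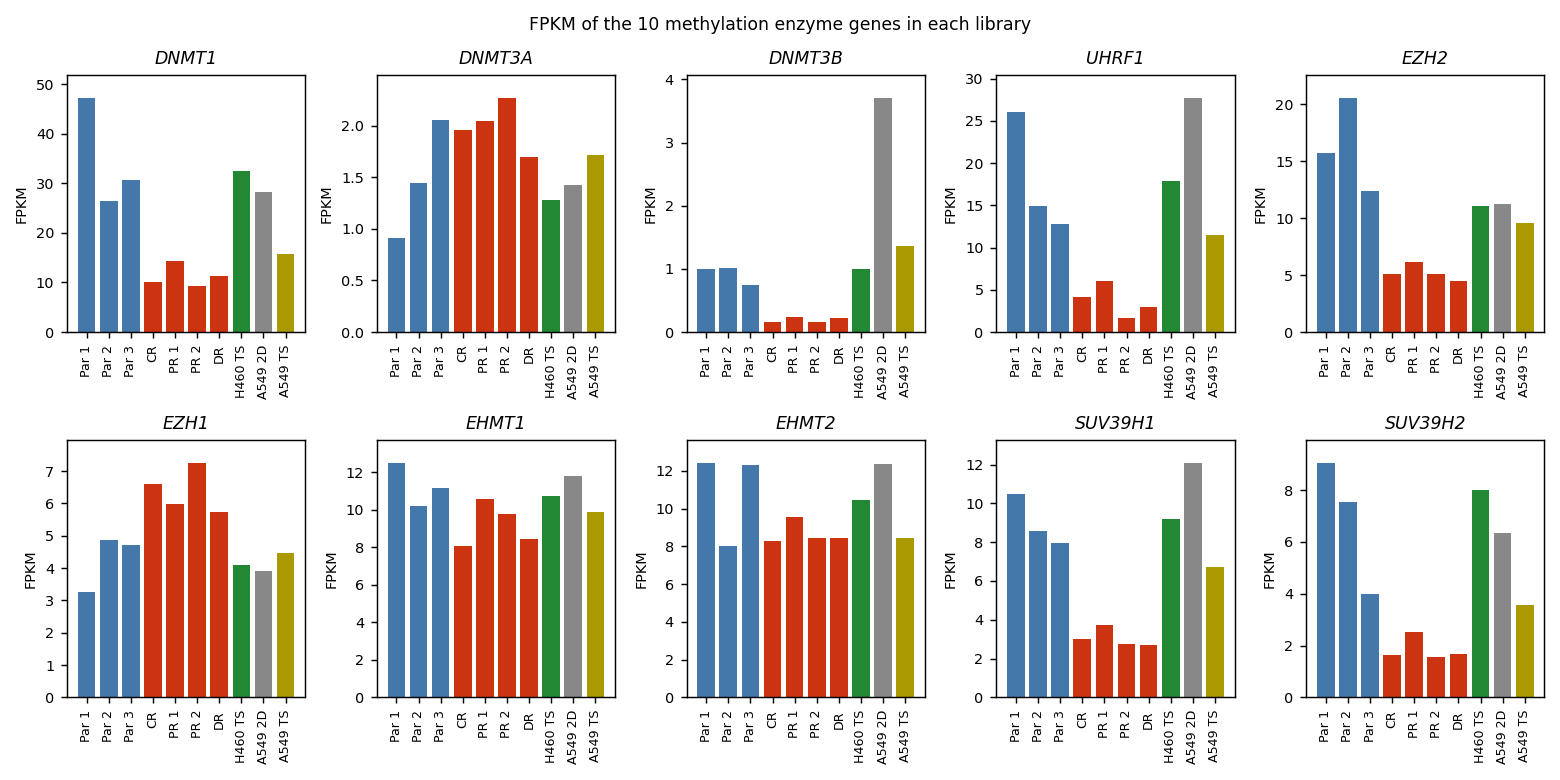
FPKM of each gene (linear axes from 0, a separate scale per gene) in the 3 parental (Par, blue), 4 drug-surviving (CR, PR and DR, red), 1 H460 TS, 1 A549 2D and 1 A549 TS library, with 1 bar per library. The red bars lie below every blue bar for *DNMT1*, *DNMT3B*, *UHRF1*, *EZH2*, *SUV39H1* and *SUV39H2*, and above every blue bar for *EZH1*.

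*DNMT1* (NCBI Gene 1786, chr19:10133346-10194953 on GRCh38), the maintenance methyltransferase, was at 47.2, 26.4 and 30.7 FPKM in parental replicates 1 to 3. It was at 10.1 FPKM in CR, 14.3 and 9.35 FPKM in PR replicates 1 and 2, and 11.4 FPKM in DR cells. The groups did not overlap, and the mean fell from 34.8 ± 11.0 (SD, n = 3) to 11.3 ± 2.20 FPKM (SD, n = 4), 32.4% of the parental mean. The edgeR log2 fold change was -1.74 (SE 0.24, adjusted p = 0.000697). *DNMT1* was the highest of the 10 genes in FPKM in 9 of the 10 libraries, PR replicate 2 being the exception, where *EHMT1* was higher at 9.80 FPKM.

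*UHRF1* (NCBI Gene 29128, chr19:4903080-4962154), which recruits *DNMT1*, was at 26.0, 14.9 and 12.8 FPKM in parental cells. It was at 4.15 FPKM in CR, 6.01 and 1.62 FPKM in PR, and 2.97 FPKM in DR cells. PR replicate 2 was the lowest and PR replicate 1 the highest of the drug-surviving libraries, so the PR pair spanned the whole drug-surviving range. The log2 fold change of -2.37 (SE 0.40, adjusted p = 0.00176, edgeR) was the furthest from 0 among the 10 genes and had the widest interval, from -3.25 to -1.50. The ratio of *UHRF1* to *DNMT1* FPKM was between 0.417 and 0.563 in parental and between 0.173 and 0.419 in drug-surviving libraries, and the groups overlapped.

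*DNMT3B* (NCBI Gene 1789, chr20:32762385-32809356), a de novo methyltransferase, was low in H460 cells throughout. Its FPKM was 1.01, 1.02 and 0.740 in parental cells, 0.157 in CR, 0.242 and 0.158 in PR, and 0.222 in DR cells. These levels rested on 284 to 351 reads per parental library and 46 to 97 reads per drug-surviving library. All drug-surviving libraries were lower, with a log2 fold change of -2.29 (SE 0.29, adjusted p = 0.00044, edgeR).

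*DNMT3A* (NCBI Gene 1788, chr2:25227874-25342590), the other de novo enzyme, was at 0.913, 1.44 and 2.05 FPKM in parental cells. It was at 1.96 FPKM in CR, 2.04 and 2.27 FPKM in PR, and 1.69 FPKM in DR cells. Parental replicate 3 lay within the drug-surviving range and the other parental replicates below it. The log2 fold change was 0.33 (95% interval -0.34 to 0.99, adjusted p = 0.424, edgeR), and without parental replicate 3 it was 0.75 with an adjusted p of 0.042. The transcript length implied by its count and FPKM varied 1.30-fold between libraries (8178 to 10608 bases), so the length behind its FPKM was not the same in every library.

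The de novo pair therefore stood in a different proportion. The ratio of *DNMT3A* to *DNMT3B* FPKM was 0.907, 1.42 and 2.77 in parental cells, and it was 12.5 in CR, 8.44 and 14.4 in PR, and 7.63 in DR cells. *DNMT3L*, the catalytically inactive partner of the de novo enzymes, had 0 reads in all 10 libraries.

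*EZH2* (NCBI Gene 2146, chr7:148807383-148884291), the PRC2 catalytic subunit of dividing cells, was at 15.7, 20.5 and 12.4 FPKM in parental cells. It was at 5.06 FPKM in CR, 6.10 and 5.11 FPKM in PR, and 4.49 FPKM in DR cells. The drug-surviving libraries lay close together and well under the parental range, at 32.0% of the parental mean. The log2 fold change was -1.85 (SE 0.18, adjusted p = 0.000196, edgeR). The length implied by its count and FPKM varied 1.33-fold between libraries (3191 to 4255 bases), the widest of the 10 genes.

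*EZH1* (NCBI Gene 2145, chr17:42700275-42745040), the alternative catalytic subunit, was at 3.27, 4.88 and 4.71 FPKM in parental cells. It was at 6.61 FPKM in CR, 6.00 and 7.24 FPKM in PR, and 5.74 FPKM in DR cells. Every drug-surviving library was above every parental library, as for 25.8% of all genes tested. The log2 fold change of 0.46 (95% interval 0.03 to 0.89) did not pass the edgeR test (adjusted p = 0.0934), and it passed with limma on log2(FPKM + 1) (0.50, adjusted p = 0.0425) and in edgeR with upper-quartile scaling (0.62, adjusted p = 0.0428), which shifted the median of all genes from 0.06 to 0.23.

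The FPKM of *EZH1* divided by that of *EZH2* was 0.208, 0.237 and 0.379 in parental cells. It was 1.31 in CR, 0.983 and 1.42 in PR, and 1.28 in DR cells. Parental libraries averaged 0.275 ± 0.0917 (SD, n = 3) and drug-surviving libraries 1.25 ± 0.186 (SD, n = 4), with no overlap. *EZH1* was above *EZH2* per length in 3 of the 4 drug-surviving libraries and nearly level with it in PR replicate 1, and it was below *EZH2* in the 6 other libraries. A ratio within a library shows that the pair changed unequally and depends on the transcript lengths used for FPKM.

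**Figure D2:**
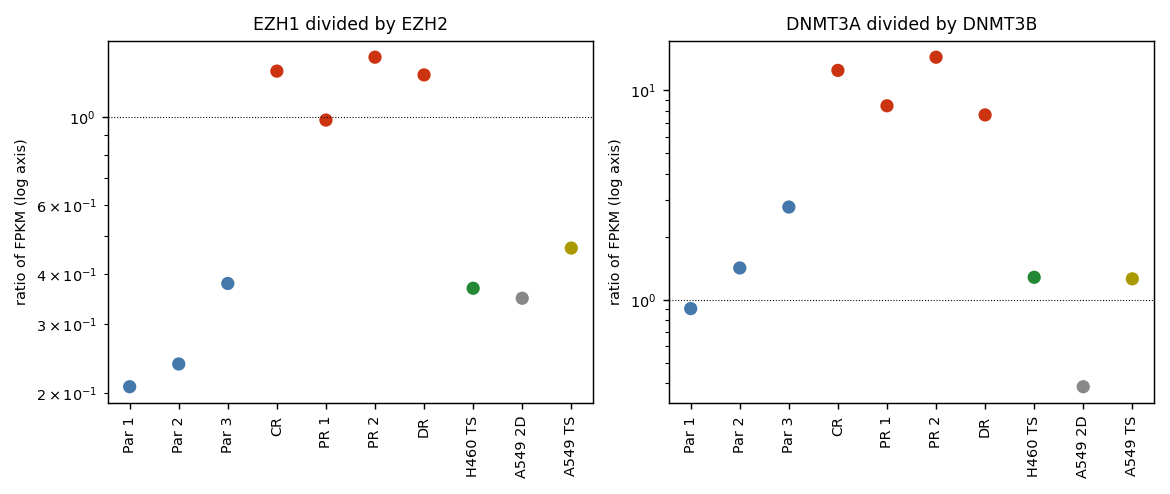
Ratio of FPKM of *EZH1* to *EZH2* (left) and of *DNMT3A* to *DNMT3B* (right) in each library, on log axes, with 1 point per library and a dotted line at 1 (Par, parental; blue parental, red drug-surviving, green H460 TS, grey A549 2D, olive A549 TS). The 4 red points lie above all other points in both panels, from 0.983 to 1.42 and from 7.63 to 14.4.

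*SUV39H1* (NCBI Gene 6839, chrX:48695554-48709016), an H3K9 trimethylase, was at 10.5, 8.58 and 7.95 FPKM in parental cells. It was at 2.99 FPKM in CR, 3.71 and 2.73 FPKM in PR, and 2.69 FPKM in DR cells. The drug-surviving libraries were all lower, with a log2 fold change of -1.69 (SE 0.19, adjusted p = 0.000295, edgeR). Its paralog *SUV39H2* (NCBI Gene 79723, chr10:14878866-14904315) was at 9.04, 7.53 and 4.01 FPKM in parental cells. It was at 1.62 FPKM in CR, 2.54 and 1.58 FPKM in PR, and 1.67 FPKM in DR cells. *SUV39H2* fell with a log2 fold change of -1.99 (SE 0.28, adjusted p = 7e-04, edgeR), and the ratio of *SUV39H2* to *SUV39H1* FPKM overlapped between the groups (0.504 to 0.878 in parental and 0.543 to 0.684 in drug-surviving libraries).

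*EHMT1* (NCBI Gene 79813, chr9:137619005-137836127), of the H3K9 mono- and dimethylase dimer, was at 12.5, 10.2 and 11.2 FPKM in parental cells. It was at 8.08 FPKM in CR, 10.6 and 9.80 FPKM in PR, and 8.44 FPKM in DR cells, and PR replicate 1 reached into the parental range. The log2 fold change was -0.43 (95% interval -0.79 to -0.07, adjusted p = 0.0662, edgeR). Its partner *EHMT2* (NCBI Gene 10919, chr6:31879759-31897698) was at 12.4, 8.01 and 12.3 FPKM in parental cells, and at 8.26 FPKM in CR, 9.57 and 8.45 FPKM in PR, and 8.46 FPKM in DR cells. Parental replicate 2 was below all drug-surviving libraries for *EHMT2*, and the log2 fold change was -0.44 (95% interval -0.90 to 0.01, adjusted p = 0.12, edgeR).

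Parental replicate 2 decided both calls of the dimer. Without it the log2 fold changes were -0.55 for *EHMT1* (adjusted p = 0.0467) and -0.66 for *EHMT2* (adjusted p = 0.0257, edgeR), and 8 of the 10 genes fell. The FPKM of *EHMT1* divided by that of *EHMT2* averaged 1.06 ± 0.191 (SD, n = 3) over parental libraries and 1.06 ± 0.0868 (SD, n = 4) over drug-surviving ones. The dimer's subunits were the genes that took the place of *UHRF1* and *EZH2* in the order of FPKM. In parental cells *UHRF1* and *EZH2* held places 2 and 3, and in drug-surviving cells *EHMT1* and *EHMT2* were among the first 3 places in every library.

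**Figure D3:**
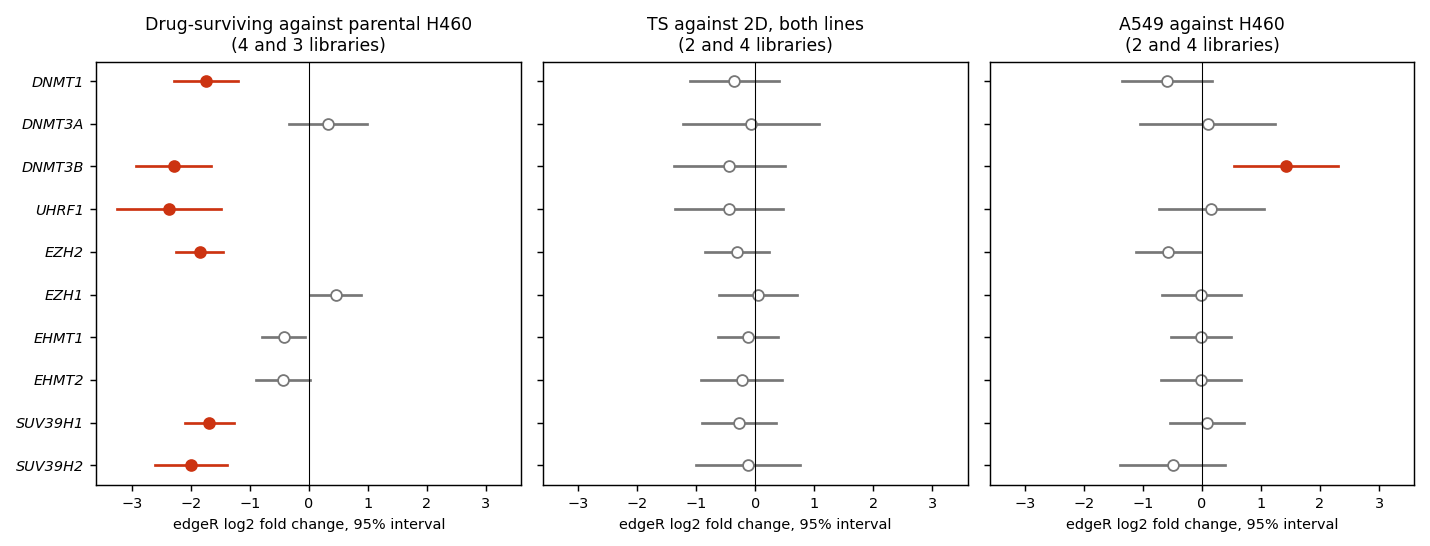
edgeR log2 fold change of each gene (points) with its 95% interval (lines) in 3 comparisons, filled red where the adjusted p was under 0.05 and open grey otherwise. In drug-surviving against parental cells 6 genes lie left of 0 between -2.37 and -1.69, in TS against 2D cells all 10 intervals include 0, and in A549 against H460 cells *DNMT3B* alone passed the test.

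The drugs were compared with parental cells one by one as descriptions, since CR and DR have 1 library each. On log2(FPKM + 1), which understates the change of low genes such as *DNMT3B*, *DNMT1* differed by -1.65 in CR, -1.49 in DR and -1.46 in the mean of PR cells. *EZH2* differed by -1.48, -1.62 and -1.36, and *UHRF1* by -1.81, -2.19 and -2.08, in the same order. *SUV39H1* (-1.32, -1.43 and -1.25) and *SUV39H2* (-1.53, -1.50 and -1.32) also differed by more than 2-fold for each drug, as 7.05% of genes did downward in CR, 5.68% in DR and 5.62% in PR. *EZH1* differed by 0.54, 0.37 and 0.54, and *DNMT3A* by 0.29, 0.15 and 0.38. These comparisons share the parental libraries.

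In PR cells, the drug with replicates, each of these 6 genes fell and 0 of the 10 rose (edgeR, 2 against 3 libraries), with 10.7% of 19430 genes called lower and 17.4% higher. Genes called higher made up 61.9% of the calls, and 75.4% with upper-quartile scaling. Their log2 fold changes ran from -2.43 for *UHRF1* (SE 0.55, adjusted p = 0.0113) to -1.71 for *SUV39H1* (SE 0.28, adjusted p = 0.00371). *EZH1* was at 0.38 (95% interval -0.21 to 0.97) and *DNMT3A* at 0.32 (-0.55 to 1.19). The value of *UHRF1* was -3.68 without PR replicate 1 and -1.77 without PR replicate 2. Without PR replicate 2, which leaves 1 PR library, 1 gene passed the test, *EZH2*.

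The library names come in 2 forms, with a hyphen after the leading word for parental replicate 2, PR replicate 2, CR and DR and without that hyphen for the others, and the name of PR replicate 1 also carries an ending that no other name has. What these forms stand for is not stated. On log2(FPKM + 1), the drug-surviving minus parental difference within the hyphen form (3 and 1 libraries) was -1.29 for *DNMT1*, -2.08 for *UHRF1*, -0.78 for *DNMT3B*, -1.87 for *EZH2*, -1.33 for *SUV39H1* and -1.70 for *SUV39H2*. Within the other form (1 and 2 libraries) it was -1.35, -1.46, -0.59, -1.08, -1.10 and -1.0 in the same order, so each of the 6 genes was lower within both forms. *EZH1* was higher within both (0.35 and 0.50), and *EHMT2* was at 0.06 in the first and -0.34 in the second. With the form as a covariate in edgeR, 6 of the 10 genes passed the test.

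Cell cycle markers were lower in the drug-surviving libraries. All 7 of *MKI67*, *PCNA*, *CCNA2*, *CCNB1*, *CDK1*, *TYMS* and *MCM6* fell in drug-surviving cells, from -3.70 (SE 0.67) for *MKI67* to -1.10 (SE 0.21) for *PCNA* in edgeR log2 fold change. Their summed FPKM was 663.9, 685.3 and 401.4 in parental replicates 1 to 3, 165.4 in CR, 196.3 and 129.0 in PR, and 142.9 in DR cells. PR replicates 1 and 2 had the highest and lowest sums among the drug-surviving libraries. PR replicate 1 was also the highest of the 4 for 6 of the 6 fallen methylation enzymes. It was highest as well for *EHMT1* and *EHMT2*, which did not pass the test. This order was thus not particular to the fallen genes. PR replicate 2 was the lowest of the 4 for 3 of the fallen genes (*DNMT1*, *UHRF1* and *SUV39H2*), DR for 2 (*EZH2* and *SUV39H1*) and CR for 1 (*DNMT3B*). The part of the cell cycle markers in the fall of the methylation enzymes was not tested.

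Of 62 other genes of methylation and demethylation in 7 lists, 61 were tested in drug-surviving cells, of which 23 fell (37.7%) and 4 rose (6.56%). Their median log2 fold change was -0.35, beside 0.06 over all genes tested, of which 15.4% were called lower and 18.4% higher. With limma 13 of 59 tested genes fell. With edgeR the number that fell was 15 without PR replicate 2 and 15 without the DR library, and the number that rose was 2 without PR replicate 2, parental replicate 1 or parental replicate 2.

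Among 9 PRC2 partners 6 fell and 1 rose, and 3 fell with limma. The scaffold *SUZ12* was at 16.8, 17.2 and 11.5 FPKM in parental and between 6.76 and 10.7 FPKM in drug-surviving libraries, and fell by 1.04 on the log2 scale (SE 0.21, adjusted p = 0.00412, edgeR). *EED*, the reader of trimethylated H3K27, had a log2 fold change of -0.52 (adjusted p = 0.0788). Of the 3 Polycomb-like proteins, which occupy the same place in the complex, *PHF19* fell by 1.70 (30.0 to 52.1 FPKM in parental and 11.8 to 14.8 FPKM in drug-surviving cells) and *MTF2* fell by 0.62, while *PHF1* rose by 1.14 (5.11 to 7.25 FPKM against 11.0 to 18.5 FPKM). *PHF1* and *PHF19* did not overlap between the groups and moved in opposite directions. *MTF2* (adjusted p = 0.0482, edgeR) did overlap, at 2.29 to 4.04 FPKM in parental and 2.09 to 2.77 FPKM in drug-surviving cells.

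Among 7 tested partners of DNA methylation and demethylation 4 fell. *HELLS*, a remodeler needed for methylation of repeats, fell by 1.87 (SE 0.30, adjusted p = 0.00142), from 3.11 to 8.06 FPKM in parental to 0.738 to 2.13 FPKM in drug-surviving cells. *TET1*, a 5-methylcytosine oxidase, fell by 1.14 (adjusted p = 0.0327) and the glycosylase *TDG* by 0.83 (adjusted p = 0.0247), while *USP7*, a deubiquitinase that binds *DNMT1*, fell by 0.65 (adjusted p = 0.0333, edgeR). By this test, genes of removal as well as of addition were among the fallen. *TET1* (0.200 to 0.469 FPKM in parental and 0.102 to 0.203 FPKM in drug-surviving cells) and *TDG* (11.2 to 26.2 and 10.5 to 14.0 FPKM) overlapped between the groups. With limma 1 of 6 tested genes of the list fell, and with the form of library name as a covariate 1 of 7. The count of 4 also rested on single libraries. It was 1 without PR replicate 2 or without DR, and 2 without CR, parental replicate 1 or parental replicate 2. Of 5 methyl-CpG readers 0 passed the edgeR or DESeq2 test in either direction and 1 had an unadjusted p under 0.05 (*MBD2*), with log2 fold changes between -0.42 for *MBD2* and 0.26 for *MBD1*.

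Among 9 partners and readers of H3K9 methylation 4 fell. These were the 3 heterochromatin protein 1 genes *CBX3* (-1.13, SE 0.23), *CBX1* (-1.07, SE 0.18) and *CBX5* (-0.84, SE 0.17), which bind methylated H3K9, and the corepressor *TRIM28* (-0.86, SE 0.21). *SETDB1*, the H3K9 methyltransferase that works with *TRIM28*, had a log2 fold change of 0.01 (95% interval -0.33 to 0.36, adjusted p = 0.956, edgeR).

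Demethylases of H3K9 and H3K27 went both ways, with 3 of 10 higher and 1 lower. Over all genes tested 18.4% were called higher and 15.4% lower, so these counts are not far from those shares. The median log2 fold change of the list was -0.06. *KDM6B*, an H3K27 demethylase, was at 2.45, 1.07 and 2.93 FPKM in parental cells and between 4.18 and 9.42 FPKM in drug-surviving cells, with a log2 fold change of 1.40 (SE 0.38, adjusted p = 0.0173). The H3K9 demethylases *KDM3A* (0.71, adjusted p = 0.0242) and *KDM4B* (0.69, adjusted p = 0.0206) also rose. *KDM1A* fell by 1.23 (adjusted p = 0.000691, edgeR), from 31.6 to 42.1 FPKM in parental to 15.7 to 20.4 FPKM in drug-surviving cells. Without parental replicate 1, parental replicate 2 or PR replicate 2, 1 of the 10 rose.

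Among 18 other histone methyltransferases 5 fell and 0 rose with edgeR, 1 was higher at an unadjusted p under 0.05, and 1 rose with DESeq2. The H3K36 enzyme *NSD2* fell by 1.67 (SE 0.18, adjusted p = 0.000257, edgeR), from 18.7 to 21.9 FPKM in parental to 5.58 to 8.55 FPKM in drug-surviving cells, and *SMYD2*, *DOT1L*, *KMT5A* and *SMYD3* fell by 0.74 to 1.00. All 3 genes of methyl donor supply fell. *MAT2A* and *MAT2B*, subunits of the enzyme that makes S-adenosylmethionine, fell by 0.61 and 0.63. *AHCY*, which clears the product left after methylation, fell by 0.56. The edgeR adjusted p of the 3 genes were 0.0314, 0.0167 and 0.0489 in that order. With limma 0 of the 3 passed, and 0 passed without PR replicate 2. Without DR, parental replicate 1 or parental replicate 2, 1 of the 3 passed.

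**Figure D4:**
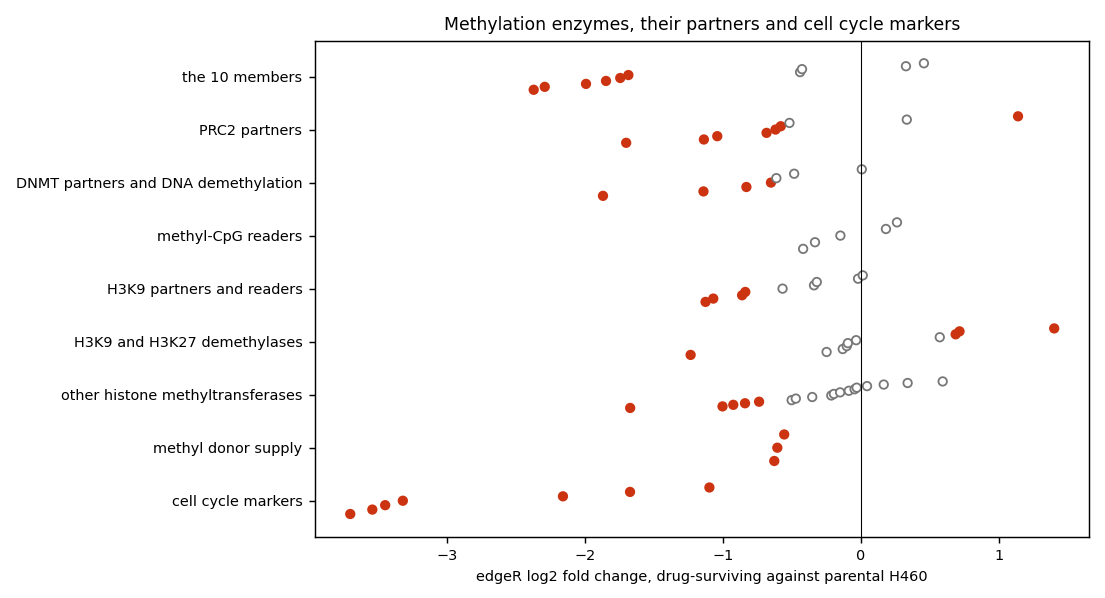
edgeR log2 fold change in drug-surviving against parental H460 cells (x axis) for the 10 methylation enzymes, the 7 lists of related genes and the cell cycle markers, with 1 point per tested gene, filled red where the adjusted p was under 0.05. The cell cycle markers reach -3.70, the enzymes -2.37, and filled points right of 0 are *PHF1*, *KDM6B*, *KDM3A* and *KDM4B*.

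In TS against 2D cells, with the cell line as a covariate, 0 of the 10 genes passed the edgeR test, where 0.191% of 18372 genes did. In this design 35 genes were called, 1352 had an unadjusted p under 0.05, and DESeq2 called 537 genes, 0 of them among the 10. None of the 10 had an unadjusted p under 0.05. Of the 61 related genes tested 0 passed, with 2 at an unadjusted p under 0.05 and 0 with DESeq2. All adjusted p of the 10 genes were 1. The intervals were wide, for example -1.36 to 0.46 for *UHRF1* and -0.86 to 0.22 for *EZH2*. They do not exclude changes of 2-fold for *UHRF1*, *DNMT1* (lower end -1.11), *DNMT3A* (-1.23 to 1.08), *DNMT3B* (lower end -1.39) and *SUV39H2* (lower end -1.01).

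The lines gave different values in TS culture, with 1 TS library each. For 9 of the 10 genes the H460 TS value fell inside the parental range, while 43% of all genes lay outside it. Its *DNMT1* was 32.6 FPKM, its *UHRF1* 17.8 FPKM, its *DNMT3B* 0.999 FPKM and its *SUV39H1* 9.20 FPKM. The exception was *EZH2*, at 11.1 FPKM, below the lowest parental value of 12.4 FPKM. In CPM, read counts scaled to library size without length, *EZH2* was at 47.1 in the TS library and 47.3 in parental replicate 3, nearly level, and the length behind the FPKM was 4255 bases in the first and 3812 bases in the second.

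The A549 TS library was below the A549 2D library for 8 of the 10 genes, where 51.9% of all genes were lower. *UHRF1* was at 27.7 FPKM in the 2D and 11.5 FPKM in the TS library, *DNMT3B* at 3.71 and 1.36 FPKM, and *DNMT1* at 28.3 and 15.7 FPKM. *SUV39H1* was at 12.1 and 6.75 FPKM and *SUV39H2* at 6.34 and 3.58 FPKM. *EZH1* (3.91 and 4.46 FPKM) and *DNMT3A* (1.42 and 1.71 FPKM) were the genes that were higher in TS cells. *UHRF1* alone differed by more than 2-fold on log2(FPKM + 1) (-1.20), as 3.02% of genes did downward, and with a pseudocount of 0.1 there were 2 such genes, the other being *DNMT3B*. The summed FPKM of the cell cycle markers was 598.3 in the 2D and 371.4 in the TS library of A549, and 528.3 in H460 TS cells. There is no replicate check on these differences, and whether the lines differ in their response was not tested.

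Between the lines, *DNMT3B* was higher in A549 than in H460 cells, by 1.42 on the log2 scale (SE 0.38, adjusted p = 0.0349, edgeR, 2 A549 and 4 H460 libraries with culture as a covariate), and 14.3% of all genes were called higher and 9.43% lower. The difference was carried by the A549 2D library at 3.71 FPKM, 4.02 times the parental H460 mean and 1.30 apart on log2(FPKM + 1), where 11.2% of genes were more than 2-fold higher in A549 2D, and A549 TS cells at 1.36 FPKM were nearer to the H460 libraries (0.740 to 1.02 FPKM). Without the A549 2D library the log2 fold change was 0.47 (adjusted p = 0.652), and the adjusted p was 0.0811, 0.0997 and 0.0766 without parental replicates 1, 2 and 3. The other 9 genes did not pass, and *EZH2* had a log2 fold change of -0.57 (95% interval -1.12 to -0.03, adjusted p = 0.12). In the related lists 3 genes were lower in A549 cells, *SMYD3*, *KMT5A* (-0.98) and *ATF7IP* (-0.95), and 1 was higher, *KMT5B* (0.86). Without A549 TS or H460 TS 1 was lower, and the higher call was lost without each library but parental replicate 3. *SMYD3* was at 10.3 and 9.52 FPKM in A549 and between 65.6 and 100.6 FPKM in parental H460 cells, a log2 fold change of -2.91 (SE 0.28, adjusted p = 0.000965, edgeR).

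Across the 10 libraries the 5 fallen genes with higher FPKM followed each other on log2(FPKM + 1), with r from 0.85 (*UHRF1* with *EZH2*) to 0.98 (*UHRF1* with *SUV39H1*). *DNMT1* with *SUV39H2* (r = 0.94) and *EZH2* with *SUV39H2* (r = 0.92) lay between. *DNMT3B*, the other fallen gene, had r of 0.63 to 0.86 with these 5. *EHMT1*, which did not pass the test, had r of 0.71 to 0.84 with them. *EZH1* ran opposite to *UHRF1* (r = -0.94) and *DNMT1* (r = -0.91). These values describe 10 libraries that fall into separate groups and share their controls. The genes nearest in pattern, among 12331 genes with a mean FPKM of at least 1, were *MCM10* (r = 0.993) and *MCM4* (r = 0.987) for *UHRF1*, both of DNA replication, and *FANCB* (r = 0.983) for *DNMT1*. For *EZH2* they were *VRK1* (r = 0.99) and *KIF22* (r = 0.981), for *SUV39H1* *PKP4* (r = 0.994) and *LMNB2* (r = 0.993), and for *SUV39H2* *CSE1L* (r = 0.992) and *DBF4* (r = 0.991). *DNMT3B* was nearest to *FIGNL1* (r = 0.973), *EZH1* to *RGL2* (r = 0.981), *DNMT3A* to *HDAC5* (r = 0.972), *EHMT1* to *DAXX* (r = 0.949) and *EHMT2* to *TRRAP* (r = 0.949).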

How the data were processed

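Samples were grouped by their labels, and the TS libraries, labelled CTC after the culture method, were taken as TS cells. Reads came from a poly(A) kit. The submitters' processing notes list bcl2fastq 1.8.4, Trimmomatic, HISAT2 2.1.0 and StringTie 2.1.3b with GRCh38. For each gene the authors deposited a read count without normalization, an FPKM and a TPM, of which FPKM and TPM take transcript length and library size into account, and TPM was not used. Counts may derive from StringTie coverage, and the handling of reads shared by paralogs is not given in the sources used here.

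Counts were fitted with edgeR 4.0.16 (TMM, filterByExpr, robust glmQLFit, glmQLFTest) in R 4.3.3 with Benjamini-Hochberg adjustment over all genes fitted and a threshold of 0.05. The fits were drug-surviving against parental, PR against parental, and TS against 2D with A549 against H460 in 1 model. These fits were also run on simulated counts with the same preset dispersion (spread between libraries) for every gene. The simulation does not show how the fits behave at the spread of these libraries. Alternatives were DESeq2 1.42.0, limma 3.58.1 (trend) on log2(FPKM + 1) or log2(FPKM + 0.1) after a filter (FPKM 1 or more in 2 libraries), upper-quartile scaling, no filter on low counts, the form of library name as a covariate, a replicate block, and each library left out. Single libraries were compared with no test. The members and lists were chosen with earlier results of these data known. Named are all 10 members, list genes that passed the test or had the 3 largest changes of a list, *EED*, *SUZ12*, the cell cycle markers and the nearest genes by Pearson's r. *SETDB1* and *DNMT3L* were named after their values were seen. Values of some list genes are not reported here. Pearson's r between replicates across genes was 0.964 to 0.983, and the chi-square per gene of 62.8 to 268.8 showed differences beyond counting error, so the number of libraries limits precision more than depth. Gene positions are from RefSeq, matched by NCBI Gene number. Promoters are from RefSeq on GRCh38.p14, where all 10 genes matched by symbol. Figures were drawn with matplotlib 3.10.9.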

Additional observations from a re-analysis of the deposited data

Results flagged for a closer look

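PR replicate 1 stood apart from the other drug-surviving libraries for *EHMT2* and *SUV39H2*. For *EHMT2* it was at 9.57 FPKM and the others between 8.26 and 8.46 FPKM, and its gap to the nearest was 0.85 of the range of the 4 libraries. For *SUV39H2* it was at 2.54 FPKM and the others between 1.58 and 1.67 FPKM, a gap of 0.908 of the range. Both exceed Dixon's 95% critical value for 4 samples. Chance flags about 1 in 20 groups, and 10 groups were examined. In *SUV39H2* the library was still below the lowest parental value of 4.01 FPKM. Without PR replicate 1, 6 of the 10 genes fell.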

How the results depend on the processing

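Of 140 values of single genes in the drug-surviving comparison under 14 alternatives, 134 kept their direction and side of the threshold and 6 newly passed it, those of *EZH1* with limma (pseudocounts 1 and 0.1) and upper-quartile scaling, of *EHMT1* and *EHMT2* without parental replicate 2, and of *DNMT3A* without parental replicate 3. The number of the 10 genes called was 6 to 8 when libraries were left out. In PR cells it was 1 to 6, the lowest without PR replicate 2. PR and parental replicates 1 and 2 share only a number (r of same-numbered deviations 0.155, 2 pairs). With the replicate block 6 genes passed, as without it on those libraries.

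In TS against 2D cells, *DNMT3A* turned to 0.029 and 0.011 with limma (pseudocounts 0.1 and 1). With libraries left out, log2 fold changes ran from -0.44 to 0.44 for *DNMT3A*, -1.40 to 0.12 for *DNMT3B*, -1.22 to 0.013 for *UHRF1*, -0.089 to 0.24 for *EZH1*, -0.80 to 0.047 for *SUV39H1* and -0.78 to 0.26 for *SUV39H2*, and leaving out an A549 library left H460 alone for this contrast. Genes called among all tested numbered 35, and 5 to 323 with libraries left out, 19 or 29 with limma (pseudocounts 0.1 and 1), 19 with the FPKM filter, 70 without a filter and 537 with DESeq2.

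In A549 against H460 cells 2 genes passed with DESeq2, *EZH2* (-0.56, adjusted p = 0.0388) with *DNMT3B*, and 0 to 1 with libraries left out. Values near 0 changed sign, *EZH1* to 0.002 (DESeq2) and 0.016 (FPKM filter), *EHMT1* to 0.005 (FPKM filter) and *EHMT2* to 0.007 (FPKM filter), 0.004 and 0.004 (limma, pseudocounts 0.1 and 1). With libraries left out the values ran from 0.47 to 1.98 for *DNMT3B*, -0.28 to 0.61 for *DNMT3A*, -0.61 to 0.62 for *UHRF1*, -0.16 to 0.19 for *EZH1*, -0.11 to 0.032 for *EHMT1*, -0.30 to 0.16 for *EHMT2* and -0.43 to 0.41 for *SUV39H1*. Genes called numbered 4367, and 2364 without A549 2D, 2606 without parental replicate 2 and 2836 with the FPKM filter.

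In PR cells 5466 genes were called, and 2762 with the FPKM filter, 2773 and 3026 with limma (pseudocounts 0.1 and 1), 3519 without parental replicate 2, 2116 without PR replicate 1 and 1008 without PR replicate 2. Upper-quartile scaling moved the median over all genes from 0.06 to 0.23 in drug-surviving and from 0.05 to 0.30 in PR cells. Leaving out the filter on low counts moved it to 0.49 and 0.36. Within the hyphen form of library name *EHMT2* differed by 0.06. A549 TS and 2D cells differed by more than 2-fold in 2 genes with a pseudocount of 0.1, and A549 2D from H460 cells in 2 with parental replicate 3 as the control. The cause of these changes was not tested. The fewest reads behind a value were 46, for *DNMT3B* in PR replicate 2.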
